A study of Homo sapiens with 6 samples.

Results

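The 9 genes of haem metabolism described here encode enzymes that build haem (ALAS1, UROD, CPOX and FECH), a plasma protein that scavenges it (HPX) and enzymes that break it down (HMOX1, HMOX2, BLVRA and BLVRB). They were chosen by function, though with earlier results of these data known. Every probe that the array annotation gives to 1 of these symbols was taken, which made 12 of 47323 probes and 9 of 20046 annotated genes. Transcripts were compared between HepG2, a human hepatoma cell line with many hepatocyte functions, and the same line labelled as PBLD overexpressed. PBLD takes its name from a likeness to phenazine biosynthesis enzymes. Each group had 3 samples, measured on Illumina bead arrays. The labels name no time, dose or further genotype. They also do not say whether control cells carried an empty vector, how PBLD was delivered, or whether the cells were 1 clone. Separate cultures are not stated either, and the p-values then cover the spread between these samples, which could be technical. Values are log2 intensities as deposited, with a median of 8 on every array, and a change is PBLD overexpressed minus control.

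Haem is the iron-containing ring that carries oxygen or electrons in haemoglobin, cytochromes and many oxidases, and the liver makes large amounts of it for cytochrome P450 enzymes. Its synthesis starts and ends in the mitochondrion. ALAS1 catalyses the rate-limiting first step outside the red cell lineage, ALAD, UROS and UROD act in the cytosol, and CPOX, PPOX and FECH complete the ring and insert iron. Free haem is toxic, so plasma hemopexin, made by hepatocytes from HPX, binds it for uptake. Haem oxygenases, the inducible HMOX1 and the constitutive HMOX2, open the ring to biliverdin, carbon monoxide and iron, and biliverdin reductases BLVRA and BLVRB turn biliverdin into bilirubin.

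The overexpression was seen in the labelled samples. PBLD read 8.002, 8.07 and 8.18 on the control arrays and 12.62, 12.84 and 12.72 on the PBLD arrays with probe ILMN_1789653. Probe ILMN_2304404 also rose, by 4.40 (limma adjusted p = 5.29e-16). It was above the background limit described next on no control array, so its rise is better read as a bound, at least 18.0-fold. The remaining probes, ILMN_1760748 (0.05) and ILMN_1699684 (-0.05), did not pass and never exceeded that limit. A background limit was set per array at the 95th percentile of 590 probes for genes silent in liver cells, mainly olfactory receptors, and ran from 8.06 to 8.09. The hepatocyte markers measured were all above it on every array, 9 of 9, among them ALB, AFP and TTR. Of these 9, 5 were lower and 0 were higher in PBLD cells by the test below, against 4.2% of all genes lower and 5.81% higher. Among genes above the limit on at least 3 arrays, 18.4% were called in either direction. The sum of the linear intensities of these markers ran from 18.27 to 18.46 (log2) in control and from 18.12 to 18.24 in PBLD arrays. Their part in the results below was not tested. The blood cell markers PTPRC, CSF1R, ITGAM and HBB and 4 of the 5 endothelial markers (PECAM1, CDH5, KDR, TEK) were above the limit on no array. Some other blood cell markers were above it on part or all of the arrays, as given next. The endothelial marker VWF was above it on all 3 control arrays and 1 PBLD array (-0.21, limma adjusted p = 0.114). Of the 7 erythroid markers measured 1 was above it on every array (HBA2), and EPOR was above it on 2 control arrays and 1 PBLD array. In the test, 0 of the erythroid and endothelial markers passed. Of the 7 macrophage markers, 3 were above the limit on every array (LYZ, CD68 and CD14). LYZ alone was lower (-0.31, limma adjusted p = 0.0216), while CD68 (-0.23, adjusted p = 0.260) and CD14 (-0.23, adjusted p = 0.125) did not pass. The macrophage sum ran from 14.55 to 14.79 in control and from 14.34 to 14.53 in PBLD arrays, and LYZ was by far its largest part. Mean control values were 14.50 for LYZ, 10.84 for CD68 and 9.30 for CD14.

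Of the 9 haem genes, HPX rose and HMOX1 fell in PBLD cells, and the other 7 did not pass the test. The test was limma with Benjamini-Hochberg adjustment over all probes at a threshold of 0.05, and a gene was represented by its brightest probe. Over all genes 10% were called, 5.81% as higher and 4.2% as lower. Among the 10880 genes above the limit on at least 3 arrays, as all 9 haem genes were, 18.4% were called. The haem genes' 2 of 9, or 22.2%, is close to that share. Their median log2 change was 0.08, against 0.01 over all genes and 0.02 over those above the limit. Groups did not overlap for 3 of the 9 (HPX, HMOX1 and CPOX), against 23.4% of all genes and 33.9% of those above the limit.

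**Figure D1:**
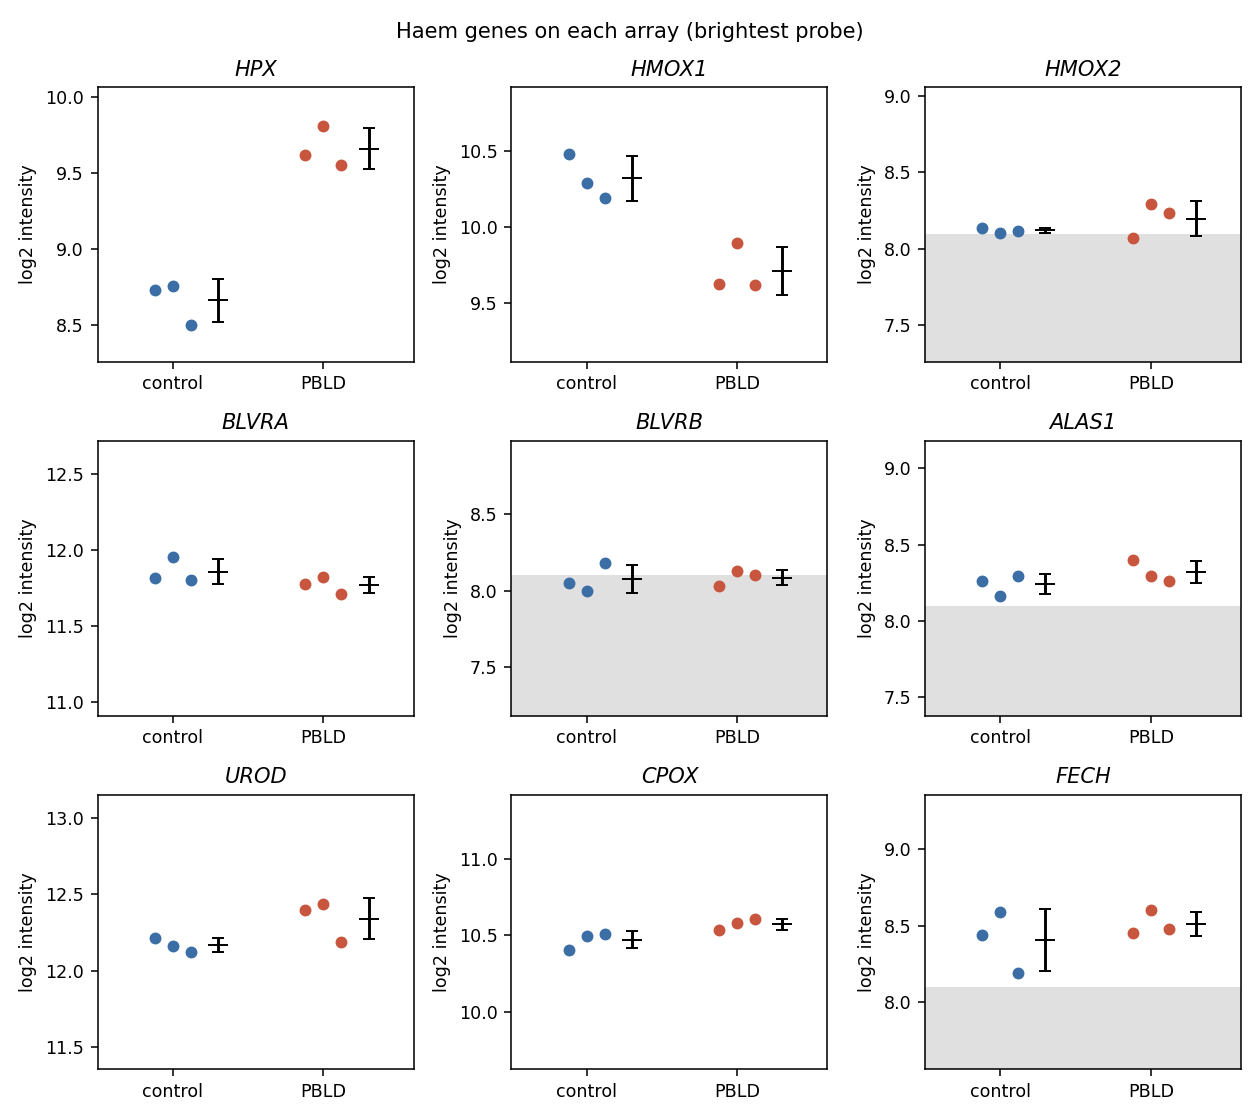
Log2 intensity of each haem gene's brightest probe on the 3 control arrays (blue) and 3 PBLD overexpressed arrays (red, marked PBLD), with the group mean and SD in black. All panels span the same number of log2 units and grey marks values under the highest background limit, 8.09. HPX and HMOX1 are the panels in which the groups stand clearly apart, in opposite directions, while HMOX2 and BLVRB lie at the limit.

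HPX encodes hemopexin, the plasma protein with the highest known affinity for haem. Its probe ILMN_1668593 read 8.73, 8.76 and 8.50 in the 3 control samples. In the PBLD samples it read 9.61, 9.81 and 9.55. Every PBLD value lay above every control value, with 0.79 between the nearest of them, which is about 3 times the range inside either group (0.25 and 0.26). The log2 change was 0.99 (SE 0.08, limma adjusted p = 1.36e-06, n = 3 each), or 1.99-fold (95% interval 1.77 to 2.25). By size it was change 52 among the 20046 genes. In bulk RNA, more cells that express a gene and more RNA per cell cannot be told apart. The background limit lay close to the array median of 8, and the background steps behind the deposited values are not given. After normexp background correction the change was 1.35.

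The bases upstream of HPX are shown because it is the member that rose, beside those of ALAS1, the rate-limiting synthesis gene, which did not pass. They are the 250 bases before the annotated start, from RefSeq on GRCh38.p14, HPX from chr11:6440988-6441237 on the minus strand and ALAS1 from chr3:52197833-52198082 on the plus strand. Capitals mark matches to the motifs searched.
HPX: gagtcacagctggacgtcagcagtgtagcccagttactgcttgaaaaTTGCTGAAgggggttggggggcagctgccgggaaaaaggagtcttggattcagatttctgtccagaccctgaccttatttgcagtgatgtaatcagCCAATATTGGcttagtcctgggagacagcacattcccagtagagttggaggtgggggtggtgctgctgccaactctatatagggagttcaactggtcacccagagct
ALAS1: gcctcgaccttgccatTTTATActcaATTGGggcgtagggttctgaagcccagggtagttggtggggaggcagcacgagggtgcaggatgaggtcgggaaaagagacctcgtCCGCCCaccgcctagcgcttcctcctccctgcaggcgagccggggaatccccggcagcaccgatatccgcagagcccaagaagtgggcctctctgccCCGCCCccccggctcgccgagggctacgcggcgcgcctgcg
The motifs, on both strands, were the TATA box (TATAAA), the CCAAT box (CCAAT), the GC box (GGGCGG), a STAT element (TTCNNNGAA), a C/EBP element (TTNNGNAA), the antioxidant response element (TGACNNNGC), a metal response element (TGCGCNC), the hypoxia response core (ACGTG), a heat shock element (GAANNTTC) and an AP-1 element (TGANTCA). HPX held a C/EBP match that starts 203 bases before the start site, a motif found in 33.2% of all 35116 promoter windows, and 2 adjoining CCAAT matches from 107 bases before it (32.0% of windows). It held no GC box, whereas the other 7 members with a promoter entry held at least 1 in some window. A second HMOX2 window held no match to any motif, and members are counted here by any of their windows. The share over all single windows was 42.6%. ALAS1 held 2 GC boxes, 1 CCAAT match and 1 TATAAA match, the last at 234 bases before the start and present in 10.7% of windows. No match overlapped another in these sequences. STAT, heat shock and AP-1 letters were in 0 of the 8 members' windows, against 6.57%, 5.78% and 6.57% of all windows. The antioxidant element was in 1 member (10.9% of windows), FECH, and the hypoxia core (18.5%) and the metal element (16.8%) in 2 each, CPOX with HMOX2 and BLVRB with HMOX2. These matches are letters in a window, and binding was not measured. GC content was 52.0% for HPX and 67.2% for ALAS1, against a median of 58.0%. HMOX1 has no promoter entry.

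Other genes that capture haemoglobin or haem did not rise with HPX. Of 5 measured, 40% were called, against 10% of all genes and 18.4% of those above the limit. Of the 5, 2 fell and 3 did not pass, with a median change of -0.06. AMBP, whose product is cut to the haem-binding alpha-1-microglobulin, fell (-0.35, SE 0.07, limma adjusted p = 0.00541), a call that ended after normexp (-0.44, adjusted p = 0.0710). HPR, a haptoglobin relative, fell (-0.24, adjusted p = 0.0432) but lost its call without any 1 array other than control replicate 3 (-0.27 to -0.21, adjusted p 0.0651 to 0.181), with normexp (adjusted p = 0.180) and with an intensity trend (adjusted p = 0.155). A second HPR probe was at -0.02, and HP and HPR are near-identical, so which gene each probe reads is uncertain. HP, the haemoglobin scavenger haptoglobin, read 10.17, 10.52 and 10.33 in control and 10.26, 10.53 and 10.47 in PBLD samples, and these groups overlapped (0.08, adjusted p = 0.829). Within each array the HPX value minus the HP value went from -1.68 ± 0.21 to -0.76 ± 0.15 (SD, n = 3 each), a difference of 0.91. The hemopexin and haptoglobin receptors, LRP1 (-0.02) and CD163 (-0.06, above the limit on 2 of 6 arrays), did not pass.

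HPX is an acute phase gene in liver, so other acute phase genes and IL6 signalling genes were read beside it. Of 15 measured, 26.7% were called, against 10% of all genes and 18.4% of those above the limit. By their brightest probe 1 rose, 3 fell and 11 did not pass, with a median of -0.04. Among those 11, dimmer probes of the fibrinogen genes passed as lower, 3 for FGA (-0.27 with ILMN_1779017, -0.24 with ILMN_1659947 and -0.23 with ILMN_2381945, limma adjusted p 0.0339 to 0.0413) and 1 for FGG (-0.30 with ILMN_1737683, adjusted p = 0.00725), while their brightest probes were at -0.10 and -0.07. SERPINA3, the protease inhibitor alpha-1-antichymotrypsin, read 13.64, 13.72 and 13.67 in control and 12.70, 12.84 and 12.69 in PBLD samples. Its change of -0.93 (SE 0.06, limma adjusted p = 2.07e-07) was close in size to that of HPX and opposite in sign. IL6ST, the shared signalling subunit of the IL6 receptor, fell (-0.38, adjusted p = 0.0130) and SERPINA1, alpha-1-antitrypsin, fell (-0.31, adjusted p = 0.00867). Their next brightest probes were at 0.09 for IL6ST and -0.19 for SERPINA1 and did not pass. Both genes lost the call with normexp (-0.46, adjusted p = 0.110, and -0.29, adjusted p = 0.261). IL6ST also lost it without control replicate 1 (-0.30, adjusted p = 0.0886) or 2 (-0.33, adjusted p = 0.0852), and SERPINA1 without PBLD replicate 1 (-0.25, adjusted p = 0.0608). ORM2, the plasma orosomucoid 2, rose (0.24, adjusted p = 0.0352), but lost its call without any 1 array other than PBLD replicate 3 (0.20 to 0.26, adjusted p 0.0614 to 0.163), with normexp (adjusted p = 0.359) and with an intensity trend (adjusted p = 0.163). Its near-identical neighbour ORM1 was at 0.21 (adjusted p = 0.306), and passed without PBLD replicate 3 (0.31, adjusted p = 0.0492). SAA1, SAA2 and CRP, strongly induced by inflammation in liver, were above the limit on no array.

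HMOX1 encodes the inducible haem oxygenase. Probe ILMN_1800512 read 10.48, 10.29 and 10.19 in control samples. It read 9.63, 9.90 and 9.62 in PBLD samples. All PBLD values were below all control values, with 0.30 between the nearest of them, about as wide as the range inside each group (0.29 and 0.27). The change was -0.61 (SE 0.09, limma adjusted p = 0.000315), or 1.52-fold lower (95% interval 1.34 to 1.73), and it held number 209 by size among the 20046 genes.

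HMOX2, the constitutive isozyme, read 8.13, 8.10 and 8.12 in control and 8.07, 8.29 and 8.23 in PBLD samples. These groups overlapped and lay at the edge of detection, on average 0.08 above the limit, with 1 PBLD array under it. The change was 0.08 (95% interval -0.07 to 0.22, limma adjusted p = 0.750), and a larger true change could be hidden by a probe this dim.

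BLVRA, which reduces the biliverdin that haem oxygenases make, was bright on every array, reading 11.82, 11.95 and 11.80 in control and 11.78, 11.82 and 11.71 in PBLD samples. The groups overlapped, and the change was -0.09 (95% interval -0.23 to 0.05, limma adjusted p = 0.679). For the values as deposited, that interval runs from a 1.17-fold fall to a 1.04-fold rise. The estimate was lower after quantile normalization (-0.15, adjusted p = 0.169) or cyclic loess (-0.16, adjusted p = 0.140). With normexp it was -0.16 (adjusted p = 0.567). BLVRB, which reduces other biliverdin isomers and flavins, read 8.05, 7.997 and 8.18 in control and 8.03, 8.12 and 8.10 in PBLD samples. Only 1 control and 2 PBLD arrays were above the limit, so its change of 0.01 (adjusted p = 0.983) says little about the transcript.

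**Figure D2:**
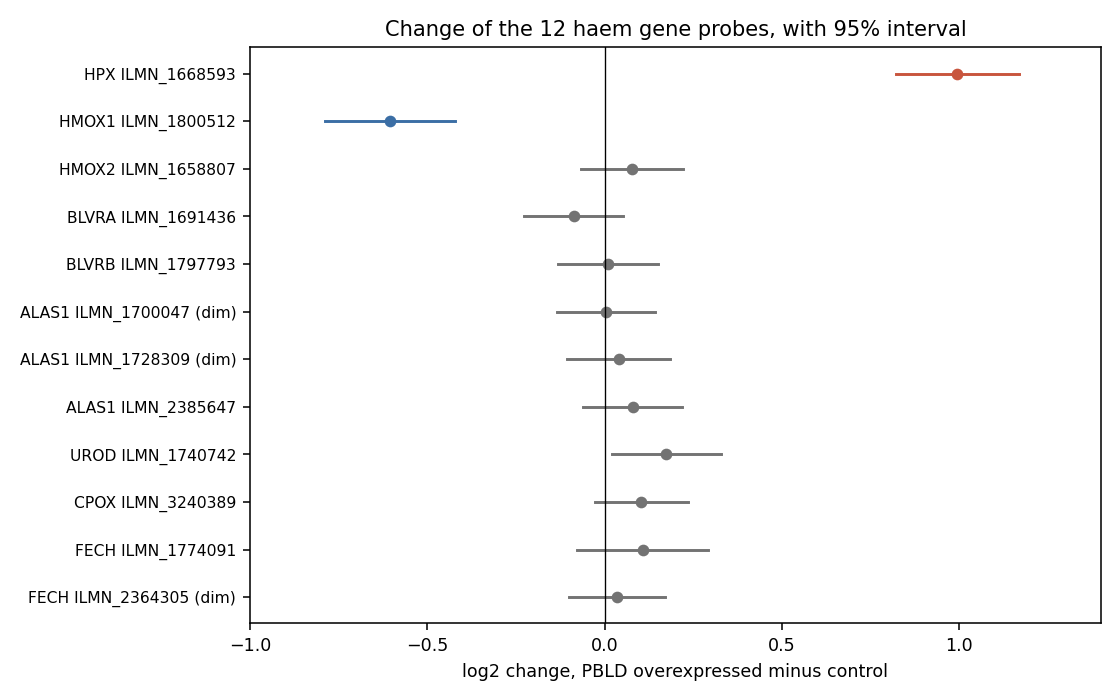
Log2 change of all 12 probes of the 9 haem genes, PBLD overexpressed minus control, with 95% intervals from limma (n = 3 each). Red passed as higher, blue as lower and grey did not pass, and "dim" marks probes above the background limit on fewer than 3 arrays. HPX at 0.99 and HMOX1 at -0.61 stand off zero, and the other 10 probes lie between -0.09 and 0.17.

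Downstream of the reductases, genes that bind, conjugate or carry bilirubin moved in both directions. Of 7 measured, 57.1% were called, against 10% of all genes and 18.4% of those above the limit. Of the 7, 3 rose, 1 fell and 3 did not pass, with a median of 0.07. GSTA2, a glutathione transferase of the ligandin type that binds bilirubin in hepatocytes, read 10.52, 10.72 and 10.43 in control and 11.67, 11.83 and 11.59 in PBLD samples (change 1.14, SE 0.08, limma adjusted p = 2.54e-07). GSTA1 rose by 1.08 (adjusted p = 2.40e-06), and the pair are so alike that their probes may not tell them apart. The uptake carrier SLCO1B3 rose from 8.43 ± 0.10 to 9.09 ± 0.10 (change 0.66, adjusted p = 2.79e-05), 1.58-fold. ABCC2, which exports conjugated bilirubin into bile, fell from 11.35 ± 0.10 to 10.89 ± 0.12 (-0.46, adjusted p = 0.000880). UGT1A1, the conjugating enzyme, was above the limit on 1 array of 6, and its level in these cells is therefore only bounded.

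Transcripts of the factors known to control HMOX1 and ALAS1 mostly did not pass. Of 11 measured, 18.2% were called, against 10% of all genes and 18.4% of those above the limit. Of the 11, 1 rose, 1 fell and 9 did not pass, with a median of 0.04. NFE2L2, the activator NRF2 of HMOX1, was at -0.03 (95% interval -0.19 to 0.12), its inhibitor KEAP1 at 0.04, and the small MAF partners MAFF and MAFG at -0.07 and 0.07. BACH1, the haem-sensing repressor of HMOX1, was above the limit on no array. NR1D1, a haem-binding nuclear receptor (0.04), and NRF1, a respiratory gene activator (0.13), were above it on 1 array each.
PPARGC1A, a coactivator that raises ALAS1 transcription in fasted liver, fell, with 10.31, 9.93 and 9.89 in control and 9.61, 9.57 and 9.56 in PBLD samples (-0.47, SE 0.09, limma adjusted p = 0.00366). LONP1, a mitochondrial protease that degrades ALAS1 protein, rose by 0.30 (adjusted p = 0.00760), and lost the call with normexp (0.23, adjusted p = 0.367) and with an intensity trend (adjusted p = 0.0614). CLPX, the mitochondrial unfoldase that also acts on ALAS1, was at 0.04. EIF2AK1, the haem-regulated kinase of translation, was at -0.20 (adjusted p = 0.0987), and passed as lower after quantile normalization (-0.24, adjusted p = 0.0170) or cyclic loess (-0.24, adjusted p = 0.0166).

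Of 8 other NRF2 target genes measured, 25% were called, against 10% of all genes and 18.4% of those above the limit. Of the 8, 2 rose, 0 fell and 6 did not pass, with a median of 0.03, while HMOX1 fell. TXNRD1, a thioredoxin reductase, rose by 0.30 (limma adjusted p = 0.00847), and lost its call with normexp (0.31, adjusted p = 0.240). A second TXNRD1 probe was at 0.17 (adjusted p = 0.226). NQO1, a quinone reductase, rose by 0.28 (adjusted p = 0.0458), but lost its call without control replicate 2 (0.29, adjusted p = 0.105) or 3 (0.21, adjusted p = 0.197), without PBLD replicate 1 (0.28, adjusted p = 0.133) or 2 (0.21, adjusted p = 0.187), with normexp (adjusted p = 0.376) and with an intensity trend (adjusted p = 0.101). FTL, the ferritin light chain that stores iron, was at -0.17 (adjusted p = 0.408), and GCLC and GCLM, subunits of the glutathione-forming ligase, at 0.00 and 0.03.

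The 4 haem synthesis members all had a positive estimate, from 0.08 to 0.17. In limma 0 of 4 passed, against 10% of all genes and 18.4% of those above the limit, and 4 genes are too few to differ from that share. Estimates were also positive for 6097 of the 10880 genes above the limit, and for 1 of the 4 other synthesis enzymes measured. That of FECH turned to -0.001 without control replicate 3. Only UROD among the 4 had an unadjusted limma p under 0.05, and it ranked number 3640 by p among the 20046 genes. UROD, which decarboxylates uroporphyrinogen, read 12.21, 12.16 and 12.12 in control and 12.40, 12.44 and 12.19 in PBLD samples. PBLD replicate 3 lay among the controls and the other PBLD samples above them. The change was 0.17 (SE 0.07, unadjusted p = 0.0280, limma adjusted p = 0.237), and without PBLD replicate 3 it was 0.25 (adjusted p = 0.0447). CPOX, the mitochondrial coproporphyrinogen oxidase, read 10.41, 10.49 and 10.51 in control and 10.53, 10.58 and 10.61 in PBLD samples. Its groups stood apart by 0.02, less than the range inside either, with a change of 0.10 (95% interval -0.03 to 0.24, adjusted p = 0.529).

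ALAS1 was read by 3 probes, of which ILMN_2385647 was above the limit on all arrays and ILMN_1700047 and ILMN_1728309 on none. The first read 8.26, 8.17 and 8.29 in control and 8.40, 8.30 and 8.26 in PBLD samples. The groups overlapped (0.08, 95% interval -0.06 to 0.22, limma adjusted p = 0.723), and the probe averaged 0.20 above the limit. FECH, the ferrochelatase that inserts iron, read 8.44, 8.59 and 8.19 in control and 8.45, 8.60 and 8.48 in PBLD samples with ILMN_1774091. Control replicate 3 lay below the other 5 samples. The change was 0.11 (95% interval -0.08 to 0.29, adjusted p = 0.714), and its second probe ILMN_2364305 was above the limit on no array.

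Of the other haem synthesis enzymes, 4 were measured, 1 fell and 3 did not pass, with a median of -0.10. The share called was 25%, against 10% of all genes and 18.4% of those above the limit. ALAD, which joins 2 molecules of aminolevulinate to porphobilinogen, read 10.49, 10.29 and 10.16 in control and 9.73, 9.82 and 9.73 in PBLD samples with ILMN_1747577. The groups did not overlap, and the change was -0.56 (SE 0.08, limma adjusted p = 0.000266). A dimmer ALAD probe, ILMN_2404657, went the other way without passing (0.17, adjusted p = 0.175), the last was above the limit on no array, and the mean of the 3 probes did not pass. UROS, which closes the porphyrin ring, was at 0.04 and PPOX, the oxidase after CPOX, at -0.05. ALAS2, the red cell isozyme of ALAS1, was above the limit on 1 array of 6.

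Of 14 genes of porphyrin and haem transport, 1 rose and 13 did not pass, with a median of 0.01. The share called was 7.14%, against 10% of all genes and 18.4% of those above the limit. The riser was SLC25A39, a mitochondrial carrier that imports glutathione (12.78 ± 0.04 to 13.12 ± 0.14, change 0.34, SE 0.07, limma adjusted p = 0.00819), a call lost with normexp (0.30, adjusted p = 0.231). PGRMC2, a haem chaperone, was at -0.16 (adjusted p = 0.323) and passed as lower with quantile normalization (-0.23, adjusted p = 0.0350) or cyclic loess (-0.24, adjusted p = 0.0254). The rest ran from -0.12 for HEBP1, a haem-binding protein, to 0.16 for ABCB10, a mitochondrial transporter needed for haem synthesis in red cells.

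**Figure D3:**
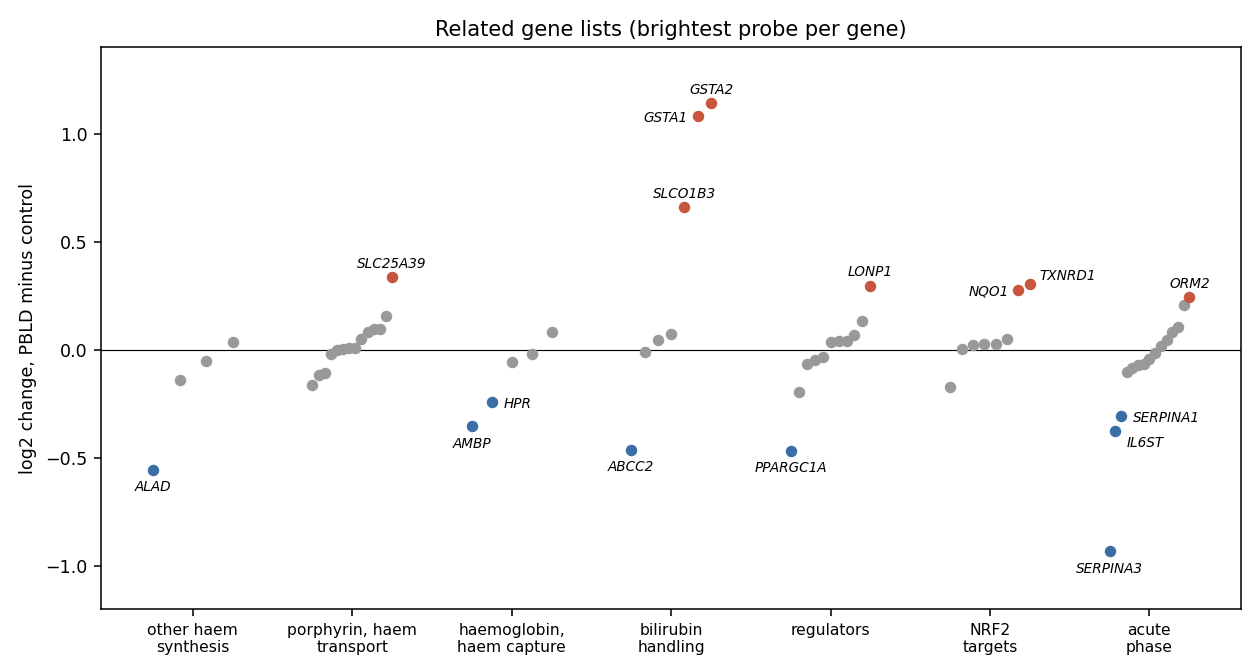
Log2 change of each measured gene in 7 lists around haem metabolism, PBLD overexpressed minus control, brightest probe per gene and sorted within a list. Red points passed as higher and blue as lower, and these are named, while grey points did not pass. Bilirubin handling holds GSTA1 (1.08) and GSTA2 (1.14), while most points of the other lists lie near zero.

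The arrays of a group were not equal in these genes. PBLD replicate 2 was the highest of its group for 7 of the 9 members, whether they rose, fell or did not pass, and the lowest for 0. Its 75th percentile over all probes was also the highest of the 6 arrays (8.60), against 8.54 and 8.51 for PBLD replicates 1 and 3. Control replicate 3 was the lowest of its group for 5 of 9 and had the lowest 75th percentile (8.50). Without PBLD replicate 2, HPX changed by 0.92 and HMOX1 by -0.70, and without control replicate 3 by 0.91 and -0.67.

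Over the 6 arrays, the genes most like HPX by Pearson's r were LTV1, a small ribosomal subunit assembly factor (r = 0.9996, change 0.43), HSPA1B, an HSP70 chaperone (r = 0.9992, change 1.03), and DKC1, a pseudouridine synthase (r = 0.999, change 0.38), among 10842 genes above the limit. For HMOX1 they were PGK1, a glycolytic enzyme (r = 0.9988, change -0.60), LPP, a focal adhesion protein (r = 0.9959, change -0.47), and PEG3, an imprinted zinc finger gene (r = 0.9953, change -0.35). With 2 groups of 3 arrays, r is carried largely by the group difference, and 599 genes had r over 0.95 with HPX and 382 with HMOX1, so these names are a description of 6 arrays.

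**Figure D4:**
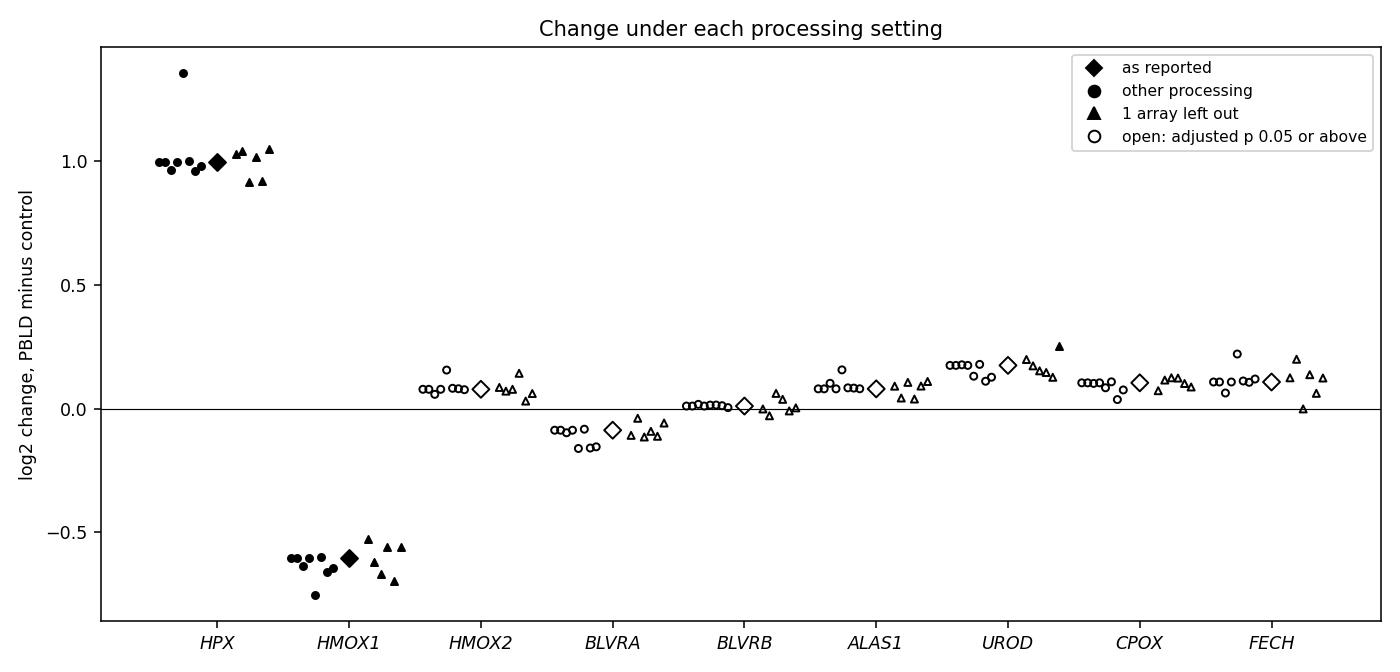
Log2 change of each haem gene's brightest probe as reported (diamond), under 8 other ways of processing (circles) and with each of the 6 arrays left out (triangles), filled where the adjusted p was under 0.05. HPX stays between 0.91 and 1.35 and HMOX1 between -0.75 and -0.53, filled throughout, and UROD has 1 filled point, 0.25 without PBLD replicate 3.

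Under these 14 settings and at a stricter adjusted p of 0.01, HPX passed as higher in 15 of 15 alternatives and HMOX1 as lower in 15 of 15. Of the other 10 probes, UROD passed in 1 and the rest in 0.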

How the data were processed

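Total RNA of 6 HepG2 samples, 3 control and 3 PBLD overexpressed by their labels, was purified, amplified with biotin label and hybridised to Illumina bead arrays, per the labels' protocols. BeadStudio is named in the submitters' processing notes. The values are log2 intensities that the authors deposited, scaled so that each array has a median of 8; the scaling and background steps are not given in the sources used here. The signal table beside it holds 12 columns (6 signals, 6 detection values) whose names match no sample's labels, and it was not used.

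Each probe was tested with limma 3.58.1 (lmFit, eBayes, two-sided) in R 4.3.3, Benjamini-Hochberg over 47323 probes. Each gene stands for its brightest probe, by the mean of all 6 arrays. Symbols come from the platform annotation, with 30074 probes matched through Entrez identifiers to RefSeq, which changed 0 symbols. Promoters come from RefSeq GRCh38.p14 and 8 of 9 members matched. The members, the 7 related lists, the thresholds and the rule for named genes (all members, all other synthesis enzymes and regulators, up to 4 called genes in each other list, and the 3 genes most like HPX and HMOX1; others were named after their values were seen) were chosen with earlier results of these data known. The steps were tested on data simulated with 200 changed probes, fewer than the genes called here. They recovered 14% of 1.25-fold, 64% of 1.5-fold, 92% of 2-fold and 100% of 4-fold changes. A small change could therefore be missed. Alternatives were quantile, cyclic loess and 75th percentile scaling, normexp (offset 50) followed by quantile, robust eBayes with an intensity trend, array weights, a replicate block, a filter on dim probes, each array left out, an adjusted p of 0.01, and the mean of a gene's probes. The number of arrays limits the precision. Figures were drawn with matplotlib 3.10.9.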

Additional observations from a re-analysis of the deposited data

How the results depend on the processing

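HPX and HMOX1 kept direction and call in every alternative listed above, and the sign of 2 member genes that did not pass, BLVRB and FECH, turned in 3 and 1 of 15 alternatives. Leaving out each array in turn moved HPX from 0.91 to 1.05 and HMOX1 from -0.70 to -0.53, while UROD ran from 0.13 to 0.25 and passed without PBLD replicate 3. The count of changed genes over the array, 2006 (1164 higher, 842 lower), was 651 with normexp (245 and 406), 1171 at an adjusted p of 0.01, 2652 after cyclic loess (1177 and 1475) and 1404 to 1950 with 1 array left out, so the shares of called genes depend on that choice. By the labels, same-numbered arrays shared only a number, and whether they were handled together is not stated. Correlations of their deviations from the group means were 0.11, 0.08 and 0.06. Arrays of different number ran from -0.07 to -0.003, so each array correlated best with its own number. The replicate block gave 2720 changed genes and the same 2 members. With normexp the changed genes numbered 0 in haem transport, haem capture and NRF2 targets, and 1 in regulators and in acute phase genes. Quantile and cyclic loess each gave 2 in haem transport. An intensity trend gave 1 in haem capture, regulators and NRF2 targets. An adjusted p of 0.01 gave 1 in haem capture and NRF2 targets and 2 in acute phase genes. The mean of a gene's probes gave 0 among other synthesis enzymes, 1 in haem capture and NRF2 targets, and 2 in acute phase genes. With 1 array left out, haem capture had 1 to 2, NRF2 targets 1 to 2 and acute phase genes 2 to 5. Dim probes limit what could be seen for HMOX2, BLVRB and ALAS1.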
